A study of Homo sapiens with 4 samples.

Results

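The genes described here make retinoic acid, carry it to the nucleus and answer to it: the retinaldehyde dehydrogenases ALDH1A1, ALDH1A2 and ALDH1A3, the retinoic acid receptors RARA, RARB and RARG, their partner RXRA, the carrier CRABP2 and the retinoid-responsive gene RARRES1. They were chosen by name, and every probe set that the array annotation assigns to exactly 1 of these symbols was taken, which gave 24 of 41091 single-symbol probe sets and 9 of 19775 genes. Each gene is represented by its brightest probe set, that of highest mean over the arrays. The cells were CAPAN2, a cell line established from a human pancreatic ductal adenocarcinoma, grown in 10% serum. Of the 4 arrays, 2 came from cells transduced with control lentivirus and 2 from cells transduced with lentivirus carrying shRNAs against LLGL1, a polarity protein. Both groups were exposed to 8 µg/ml hexadimethrine bromide overnight. The labels call the 2 arrays of a group biological replicates, but they name neither separate cultures nor the number of shRNAs, and sample titles write siLLGL1 and NC for the groups. The comparison asked how depletion of LLGL1 changes the transcriptome. The p-values measure only the spread between these arrays.

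Retinol is oxidised to retinaldehyde by short-chain dehydrogenases, and the ALDH1A enzymes oxidise retinaldehyde irreversibly to retinoic acid. CRABP2 hands retinoic acid to the RARs, which bind DNA as heterodimers with an RXR, and CYP26 enzymes degrade it. In the pancreas, retinoic acid patterns the embryonic gut endoderm from which the organ buds, and stellate cells of the adult organ store retinol esters. In the RefSeq annotation of GRCh38.p14, ALDH1A2 and ALDH1A3 lie on chromosome 15, RARB and RARRES1 on 3, ALDH1A1 and RXRA on 9, CRABP2 on 1, RARG on 12 and RARA on 17.

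None of the 9 genes passed the test between the groups. Limma called 0 of 9 at an adjusted p below 0.05, where it called 6.28% of all genes, and the adjusted p of the 9 ran from 0.127 to 0.593. At an unadjusted p below 0.05 there were 4 of 9 (RARRES1, ALDH1A3, CRABP2 and ALDH1A1), against 28.1% of all genes. The arrays of the 2 groups did not overlap for 7 of the 9 genes, 4 with the arrays labelled LLGL1 shRNA above and 3 with them below. Over all genes the groups did not overlap for 52.4%, with 27.7% above and 24.7% below. Of the 24 probe sets 0 passed when all single-symbol probe sets were tested, where 0.83% passed, and 5 had an unadjusted p below 0.05, where 24.1% of all did. The groups did not overlap for 10 of the 24, 5 above and 5 below, against 48.2% of all probe sets, 23.4% above and 24.7% below. The median absolute log2 difference of the 9 was 0.22, beside 0.13 over all genes and 0.15 over genes whose mean signal was 3 or more (log2). Because no call was made, the values below are levels and differences with their intervals, and a missed threshold does not show that a gene was unchanged.

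**Figure D1:**
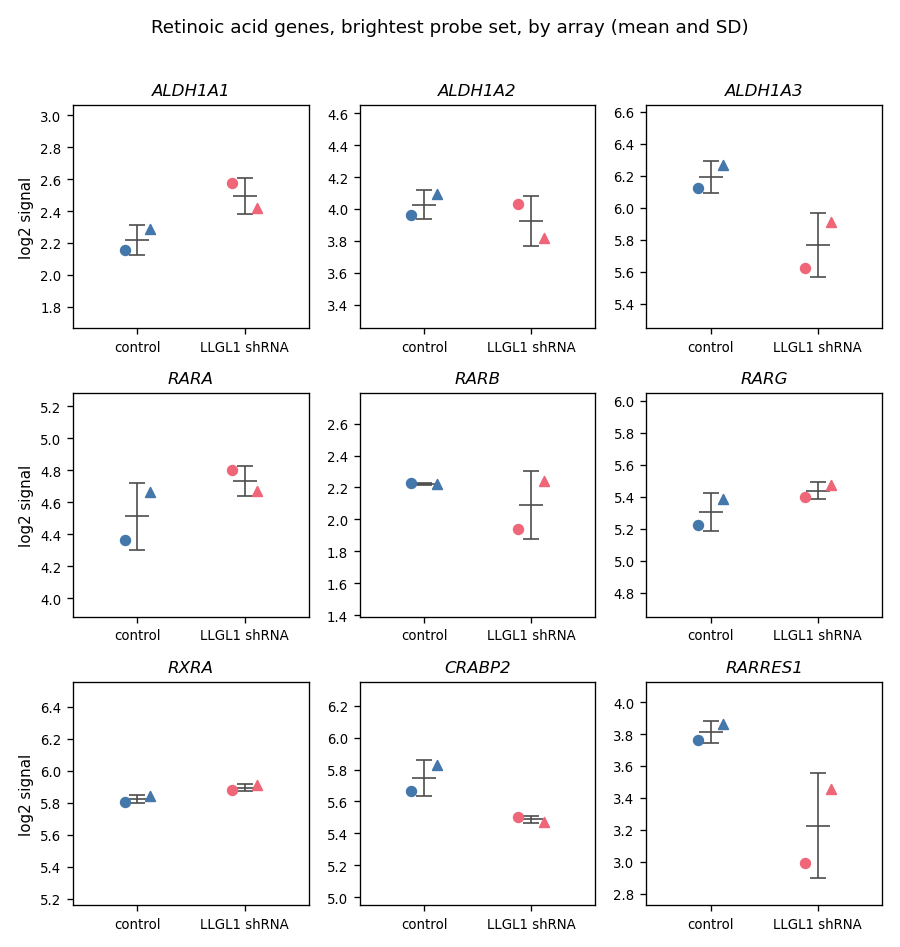
Log2 signal of the brightest probe set of each of the 9 genes on each array (circles, replicate 1; triangles, replicate 2; bars, mean and SD, n = 2 per group); every panel spans the same height of log2 signal. The 2 groups overlap for ALDH1A2 and RARB, and the arrays labelled LLGL1 shRNA lie lower for ALDH1A3, CRABP2 and RARRES1.

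The labels were not borne out by the targeted transcript, so each direction is drawn between arrays as labelled. The brightest LLGL1 probe set differed by -0.12 (SE 0.051, limma adjusted p = 0.22) and its other probe sets by 0.09 and 0.06. Median log2 signals were 2.95 to 2.98 per array, and correlations across probe sets were 0.997 within each group and lower, 0.993 to 0.994, between groups. Ductal epithelial markers read 5.10 to 12.7 over 9 measured genes, and KRT19 fell by 0.61, CDH1 fell by 0.47 and KRT7 rose by 1.62 on the log2 scale (limma adjusted p = 0.0305, 0.0356 and 0.0214). Of the 9 ductal markers 7 had differences below 0, beside 9189 of all 19775 genes, and 6 an unadjusted p below 0.05, beside 28.1%. Over all genes limma called 3.21% higher and 3.07% lower. The summed linear signal of the ductal markers was 16580 and 16800 on control arrays and 14070 and 14150 on the others. Of 10 fibroblast and stellate markers 5 lay below 3, and none passed (2 at an unadjusted p below 0.05, beside the same 28.1%). Their summed linear signal was 162 to 171 on control arrays and 161 to 175 on the arrays labelled LLGL1 shRNA. Of the remaining markers, 3 of 4 immune, 2 of 5 endothelial, 3 of 3 acinar and 4 of 4 endocrine genes lay below 3. None of those passed in limma, and 0 had an unadjusted p below 0.05. On those same arrays poly-A spike controls, added before labelling, differed by a mean of -1.14 over 24 probe sets and 18S ribosomal RNA by -1.97 over 3. Mean differences were 0.46 over the ACTB control probe sets, 0.09 over those for GAPDH and -0.12 over hybridisation controls. The part of these shifts in the values below was not tested. In a bulk RNA sample fewer cells expressing a gene and less RNA per cell cannot be told apart.

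Among the enzymes that make retinoic acid, ALDH1A3 had the largest difference and ALDH1A1 was dim in both groups. ALDH1A3, the form often studied in pancreatic and other carcinomas, read 6.12 and 6.27 (log2 signal) on the control arrays and 5.62 and 5.91 on the arrays labelled LLGL1 shRNA. Both of the latter lie below both controls, but they differ from each other by more than the control arrays do. The log2 difference was -0.43 (SE 0.12, 95% interval -0.77 to -0.08, limma adjusted p = 0.127), a 1.34-fold lower signal whose size exceeds that of 92.5% of all genes. Of 9 alternative fits on all 4 arrays, ALDH1A3 passed under 3, those that borrow the spread by signal level or leave dim probe sets out, with an adjusted p of 0.0209, 0.00784 and 0.0421. These fits also called 19.9%, 47% and 29.7% of the genes they tested. Its other probe set, at 1.73 to 1.96 on the 4 arrays, differed by 0.09, and the mean of both gave -0.17 (adjusted p = 0.178).

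ALDH1A1, the form used as a marker of some stem-like cancer cells, lay below 3 on every array. Its only probe set read 2.16 and 2.29 on the control arrays and 2.58 and 2.42 on the arrays labelled LLGL1 shRNA, so the groups did not overlap. The log2 difference was 0.28 (SE 0.089, 95% interval 0.03 to 0.52, limma adjusted p = 0.151). ALDH1A2, the main enzyme of the early embryo, read 3.96 and 4.09 on control arrays and 4.03 and 3.82 on the others. The groups overlap, and the log2 difference of -0.10 (95% interval -0.39 to 0.18, limma adjusted p = 0.593) turned to 0.00599 without LLGL1_shRNA replicate 2. The dimmer ALDH1A2 probe set differed by 0.01.

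In their brightest probe sets the 4 receptor genes differed by -0.13 to 0.22, and none passed. RXRA, the partner with which the RARs bind DNA, read 5.81 and 5.84 on the control arrays and 5.88 and 5.91 on the arrays labelled LLGL1 shRNA. Its spread within a group was an SD of 0.025 and 0.023, and the log2 difference was 0.07 (SE 0.052, 95% interval -0.07 to 0.22, limma adjusted p = 0.463). The second RXRA probe set read 5.31, 5.32, 5.40 and 5.43 in the same order and differed by 0.10. In both probe sets the arrays labelled LLGL1 shRNA lie above the controls by a small amount that did not pass.

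RARG, the receptor most prominent in epithelia such as skin, read 5.22 and 5.39 on control arrays and 5.40 and 5.48 on the others. The log2 difference was 0.13 (95% interval -0.09 to 0.36, limma adjusted p = 0.384), while its other probe sets differed by -0.05 and -0.13. Leaving out 1 array gave RARG differences of 0.0517 (without control_shRNA replicate 1) to 0.217. As the mean of all 3 probe sets the RARG difference turned to -0.0123 (adjusted p = 0.957). RARA, the receptor fused to PML in acute promyelocytic leukaemia, read 4.36 and 4.66 on the control arrays and 4.80 and 4.67 on the arrays labelled LLGL1 shRNA. The higher control and the lower of the other arrays nearly coincide, and the log2 difference was 0.22 (95% interval -0.13 to 0.58, limma adjusted p = 0.356). It was 0.0739 without control_shRNA replicate 1, 0.372 without control_shRNA replicate 2 and 0.104 as the mean of all RARA probe sets. Over the other 4 RARA probe sets the differences ran from -0.07 to 0.22, and none passed.

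RARB is itself a direct target of retinoic acid. Its classic control element is a DR5, a direct repeat of the 6-base receptor motif with 5 bases between the copies. Promoters of the RefSeq table (GRCh38.p14, from 250 bases before to 50 after each start) were searched for this repeat on both strands, with each copy being AGGTCA or the form with G in the first place, T in the third, or both. It was found in 31 of 35116 promoters (0.0883%). Among the 16 promoters listed for the 9 genes, 1 of the 4 RARB promoters held it and no other did. CYP26A1, the enzyme that degrades retinoic acid and a classic target in its own right, held the repeat on the strand opposite to the gene. The sequences are shown for RARB and CYP26A1 only, and other spacings or forms of the motif were not searched. The stretches lie upstream of the start at chr3:25428188-25428248 and chr10:93073781-93073841, both on the plus strand, and capitals mark the copies of the receptor motif.
RARB: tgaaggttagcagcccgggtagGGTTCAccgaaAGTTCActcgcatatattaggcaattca
CYP26A1: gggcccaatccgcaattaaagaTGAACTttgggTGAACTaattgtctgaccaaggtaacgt
The RARB repeat lies 53 to 37 bases before the start, and the CYP26A1 repeat 90 to 74 bases before it. A match describes these letters only.

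Neither gene with the repeat shown above passed. RARB read 2.23 and 2.22 on the control arrays and 1.94 and 2.24 on the arrays labelled LLGL1 shRNA, all below 3. The groups overlap, and the log2 difference of -0.13 (SE 0.12, 95% interval -0.46 to 0.20, limma adjusted p = 0.545) turned to 0.0173 without LLGL1_shRNA replicate 1. Its value depends on which probe set stands for it, because the means of its 2 brightest probe sets were 0.00063 apart. The other one read 2.40 and 2.32 on control arrays and 1.83 and 2.07 on the others, without overlap. Its log2 difference was -0.41 (95% interval -0.71 to -0.12), with an adjusted p of 0.127 in limma over all single-symbol probe sets. A further RARB probe set was deposited at 1.98 on all 4 arrays, and the last pair differed by -0.07 and -0.04.

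CYP26A1 read 3.67 and 4.0 on the control arrays and 3.67 and 4.07 on the arrays labelled LLGL1 shRNA, a log2 difference of 0.04 (SE 0.19, limma adjusted p = 0.939). Its replicates differed from each other by more than the groups did. Over all genes with the repeat, 15 of 29 were measured and limma called 0 of them, against 6.28% of all genes called. At an unadjusted p below 0.05 there were 2 of the 15, against 28.1% of all genes. The log2 differences of the 15 ran from -0.22 to 0.42 with a median of 0.0077.

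**Figure D2:**
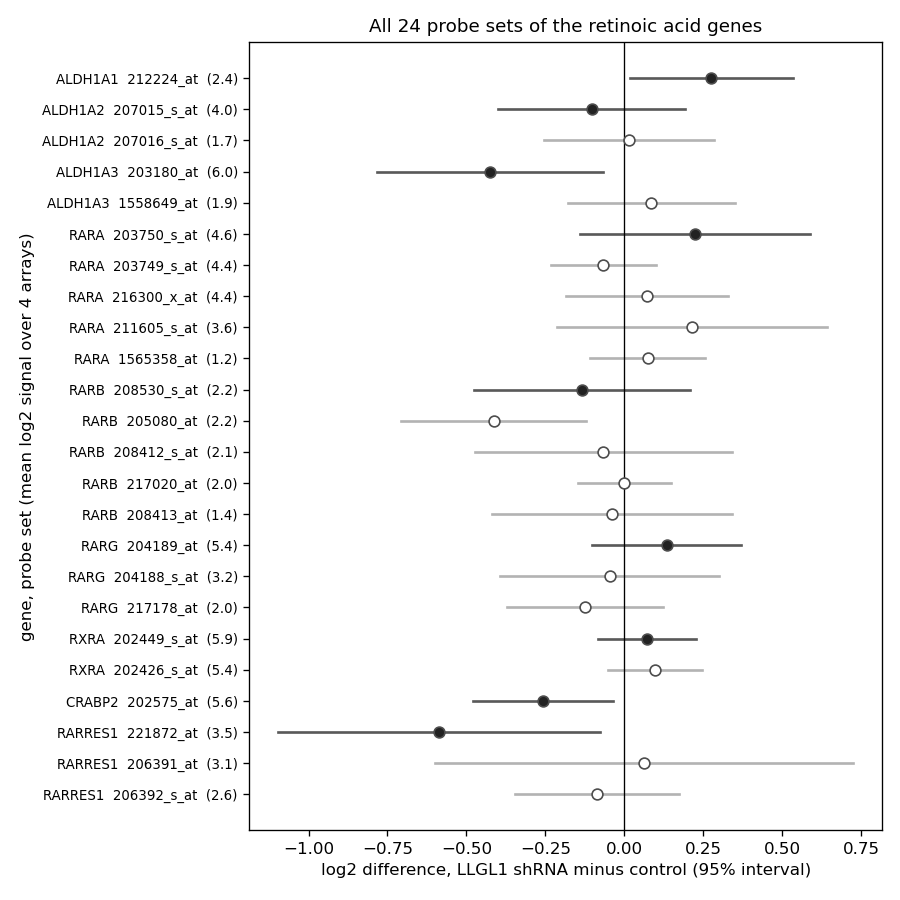
Log2 difference (LLGL1 shRNA minus control) of all 24 probe sets with 95% intervals from limma over all single-symbol probe sets; filled points stand for the gene, open points are its other probe sets, and brackets give the mean log2 signal. Intervals of 5 probe sets, of ALDH1A1, ALDH1A3, RARB, CRABP2 and RARRES1, lie off 0, and other probe sets of ALDH1A3 and RARRES1 lie near 0. For RARB the probe set off 0 is not the one that stands for the gene, and the intervals of its others include 0.

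CRABP2, the carrier, and RARRES1, a membrane protein first found as induced by the retinoid tazarotene in skin, both had lower signals without passing. CRABP2 read 5.67 and 5.83 on the control arrays and 5.50 and 5.47 on the arrays labelled LLGL1 shRNA. The groups do not overlap, and the log2 difference was -0.26 (SE 0.076, 95% interval -0.47 to -0.04, limma adjusted p = 0.132). It passed under 1 of 9 alternatives, the fit restricted to genes averaging 5 or more on the log2 scale (adjusted p = 0.0147). That fit called 47% of the genes it tested.

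RARRES1 had the largest absolute difference of the 9, larger than that of 97.1% of all genes. Its brightest probe set read 3.76 and 3.86 on the control arrays and 2.99 and 3.46 on the arrays labelled LLGL1 shRNA. Both of the latter lie below the controls, with an SD of 0.33 (n = 2) beside 0.071 for the controls. The log2 difference was -0.59 (SE 0.18, 95% interval -1.08 to -0.09, limma adjusted p = 0.135), a 1.5-fold lower signal. It passed under 2 of 8 alternatives. These were the fit that borrows the spread by signal level (adjusted p = 0.0382) and the fit without the dimmer probe sets (0.0434). They also called 19.9% and 29.7% of the genes they tested. The other RARRES1 probe sets did not show the difference of -0.59. The next brightest read 3.35 and 2.88 on control arrays and 2.96 and 3.39 on the others (log2 difference 0.06), and the dimmest by -0.09. Averaged over all 3, the RARRES1 difference was -0.203 (adjusted p = 0.418).

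The genes whose arrays followed RARRES1 most closely were sought by the Euclidean distance between log2 values centred on each gene's mean over the 4 arrays. The nearest were SEC24D (distance 0.0813), RUFY2 (0.106), ZMYM5 (0.112), FGD4 (0.123) and SENP7 (0.123), with log2 differences of -0.51, -0.59, -0.61, -0.48 and -0.47. None of these 5 passed (limma adjusted p from 0.0802 to 0.174), and 27 genes lay within a distance of 0.2. With 4 arrays such likeness is a description, and differences and p-values like those of RARRES1 follow from how these genes were sought.

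Outside the 9 genes, the rest of the retinoid pathway was taken from 8 lists by role. Of 101 genes listed 86 were measured, and 9 of them passed, 3 higher and 6 lower (10.5%), where 3.21% of all genes were higher and 3.07% lower. The median log2 difference of the 86 was -0.05, beside 0.01 over all genes. After median centring 4 were higher and 11 lower, and after cyclic loess 5 and 10, with all 9 kept under each. These fits also called more of all genes, 9.51% and 10.6%, against 6.28% as reported. With each gene as the average of its probe sets 6 of the 9 calls were kept, when every probe set was tested 1, and with the replicate block or without any 1 array none, where limma called 0 genes in all. The lists were put together with earlier results of these arrays known, so their counts are a description. No list shares a gene with the 9.

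**Figure D3:**
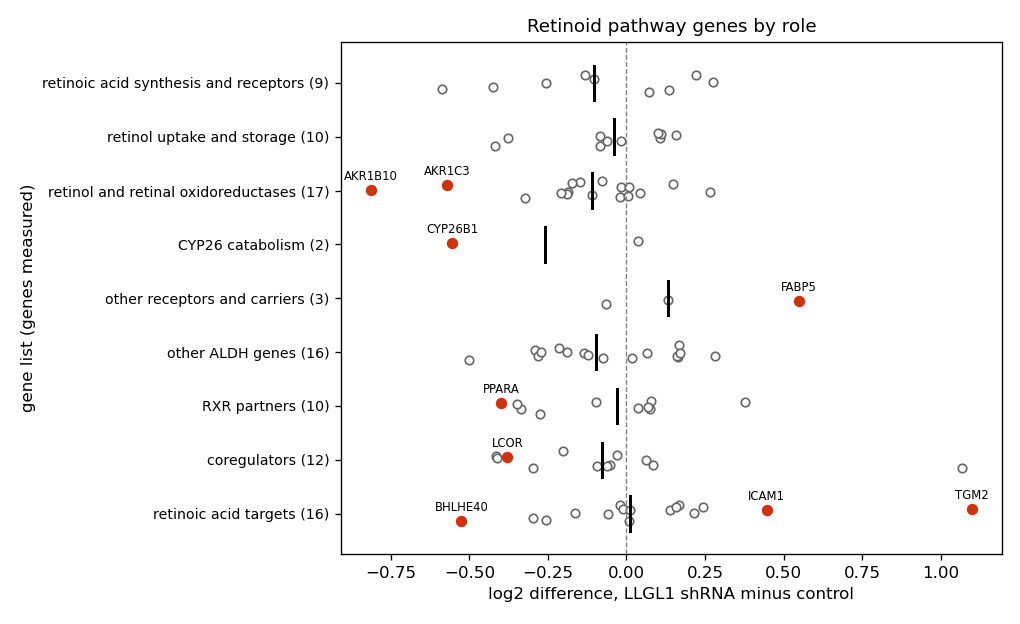
Log2 difference (LLGL1 shRNA minus control) of each measured gene of the retinoid pathway, by list; filled points passed in limma (adjusted p below 0.05), open points did not, and bars are medians. The 9 genes at the top include no filled point, and the filled points among the lists run from AKR1B10 at -0.81 to TGM2 at 1.10.

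In the list of retinol and retinal oxidoreductases, 2 of 17 genes fell and none rose, where 3.07% of all genes fell and 3.21% rose. AKR1B10, an aldo-keto reductase that converts retinaldehyde back to retinol, read 8.18 and 8.26 on the control arrays and 7.48 and 7.33 on the arrays labelled LLGL1 shRNA. It fell by 0.81 on the log2 scale (SE 0.08, limma adjusted p = 0.0331), which is 1.76-fold. Its relative AKR1C3 read 10.30 and 10.35 against 9.76 and 9.75, and fell by 0.57 (adjusted p = 0.0318). The retinol dehydrogenase SDR16C5 differed by -0.32 (adjusted p = 0.0506).

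CYP26B1, a hydroxylase that inactivates retinoic acid and 1 of 2 measured genes of its list, read 6.75 and 6.76 on control arrays and 6.19 and 6.21 on the others. It fell by 0.55 (SE 0.05, limma adjusted p = 0.0318), a 1.47-fold lower signal. The dimmer CYP26B1 probe set differed by 0.11, and the mean of both gave -0.22 without passing (adjusted p = 0.212). None of 10 genes of retinol uptake and storage passed, with 2 at an unadjusted p below 0.05, beside 28.1% of all genes. The largest differences there were RBP7, a retinol-binding protein (-0.42, limma adjusted p = 0.101), BCO1, which cleaves beta-carotene to retinaldehyde (-0.38, 0.0592), and RBP5 (0.16, 0.557). None of the 16 other aldehyde dehydrogenase genes passed, with 9 at an unadjusted p below 0.05, beside the same 28.1%, and a median difference of -0.10. Among them ALDH6A1 (-0.50, 0.0588), ALDH2 (-0.29, 0.165) and ALDH3A2 (-0.28, 0.135) differed most. Differences lay above 0 for 7 of the 16 and below 0 for 9, and the largest rise was that of ALDH1B1 (0.28, limma adjusted p = 0.061).

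Among the other receptors and carriers the fatty acid and retinoic acid carrier FABP5 rose. It read 9.78 and 9.80 on the control arrays and 10.34 on both of the others, a rise of 0.55 (SE 0.05, limma adjusted p = 0.0318), or 1.46-fold. FABP5 is known to deliver retinoic acid to the nuclear receptor PPARD, whose own signal differed by -0.34 without passing (adjusted p = 0.0966). RXRB (-0.06) and the dim RXRG (0.13) did not pass.

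The RXR partner PPARA, a fatty acid receptor, read 6.45 and 6.38 on control arrays and 6.0 and 6.04 on the others and fell by 0.40 (limma adjusted p = 0.0445). Of its 9 probe sets 8 had no overlap between the groups and lower signals on the arrays labelled LLGL1 shRNA. Over all single-symbol probe sets the groups did not overlap for 48.2%, with 24.7% below. Several of the PPARA probe sets were dim, down to a mean log2 signal of 0.886. A dimmer PPARA probe set, which differed by -0.68, passed when every probe set was tested (adjusted p = 0.0482). With the mean of all PPARA probe sets the difference was -0.337 (adjusted p = 0.0521). PPARG, the adipogenic receptor, differed by -0.35 just outside the threshold (adjusted p = 0.051) and NR4A1, an orphan receptor, by 0.38 (0.132).

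LCOR, a ligand-dependent corepressor, fell by 0.38 (limma adjusted p = 0.0489), and its dimmer probe set differed by -0.93. PRAME, a melanoma antigen known to repress RAR signalling, read 3.17 and 2.98 on control arrays and 4.36 and 3.93 on the others. The PRAME difference of 1.07 (SE 0.17) missed the threshold (adjusted p = 0.0523), and the acetyltransferase KAT2B differed by -0.41 (0.101).

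Of 16 measured genes known to be induced by retinoic acid in other cells, 2 rose and 1 fell, where 3.21% of all genes rose and 3.07% fell, and their median difference was 0.01. TGM2, tissue transglutaminase and a standard retinoic acid target, read 4.18 and 4.14 on the control arrays and 5.30 and 5.22 on the arrays labelled LLGL1 shRNA. TGM2 rose by 1.10 (SE 0.06, limma adjusted p = 0.0235), or 2.14-fold, and it was the only one of the 86 whose brightest probe set also passed when every probe set was tested (adjusted p = 0.0442 there). Its other probe sets differed by 0.51, 0.46 and -0.27, and their mean with the brightest by 0.448. ICAM1, an adhesion molecule, rose by 0.45 (adjusted p = 0.0356), but did not pass as the average of its probe sets (adjusted p = 0.0577), and the repressor BHLHE40, known as retinoic acid-induced from mouse cells, fell by 0.53 (adjusted p = 0.0349).

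**Figure D4:**
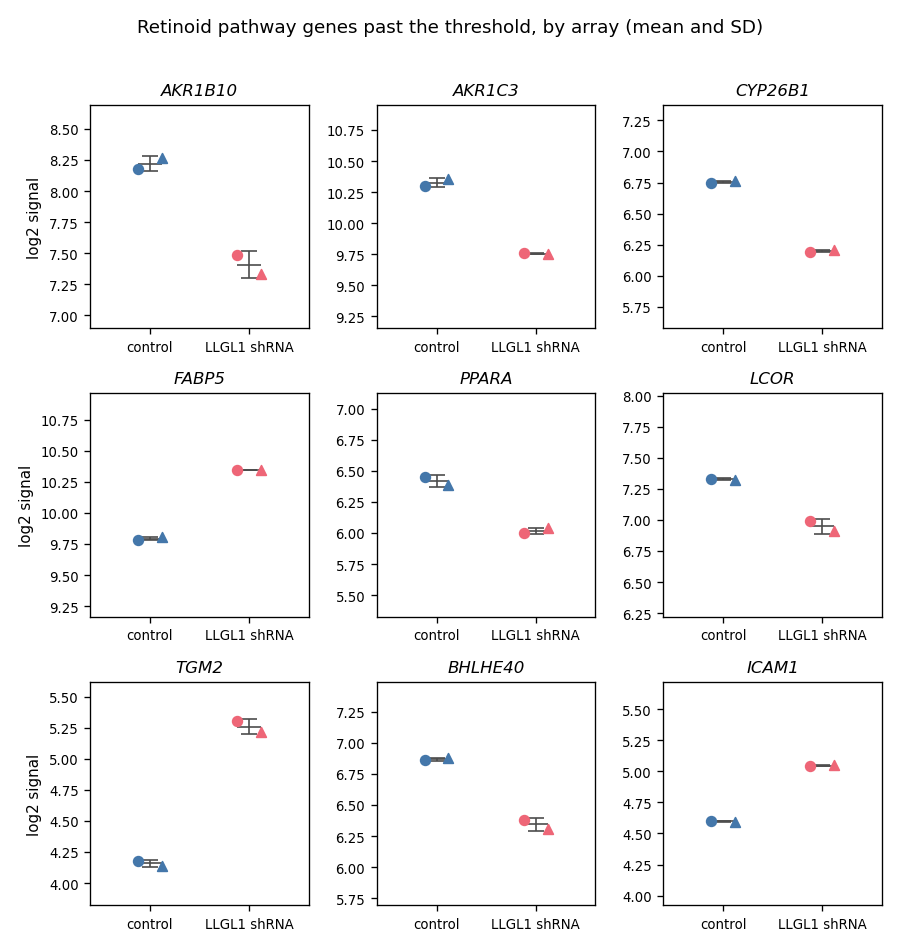
Log2 signal on each array of the 9 retinoid pathway genes that passed limma's test (circles, replicate 1; triangles, replicate 2; bars, mean and SD, n = 2 per group); every panel spans the same height of log2 signal. The 2 groups are apart in every panel, with FABP5, TGM2 and ICAM1 higher and the other 6 lower after LLGL1 shRNA as labelled. These genes are shown because they passed, and over all genes the groups did not overlap for 52.4%.

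The authors' deposited table lists 294 probe sets that differ at least 2-fold between the groups, which is 0.538% of all on the array. It holds 0 of the 24 probe sets of the retinoic acid synthesis and receptor genes, none of which reached that difference.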

How the data were processed

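Total RNA (100 ng per sample) was made into biotinylated cRNA, as the labels' protocols state. The authors deposited log2 signals for 54675 probe sets on each of the 4 arrays. RMA and Partek 6.6 are named in the submitters' processing notes, while the sources used here do not give the background step. The log2 scale was checked against the authors' deposited ratio, which matched the ratio of group means within 1.68e-05 on the log2 scale. That second table also holds a p-value and a signed fold change for each listed probe set, per the file headers. 

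Names come from the platform annotation (41097 with 1 symbol, 1801 with several, 11777 with none). Control probe sets and those without a single symbol were left out. For 19775 genes the probe set of highest mean was fitted with lmFit and eBayes in limma 3.58.1 (R 4.3.3), two-sided, with Benjamini-Hochberg adjustment over all genes and a threshold of 0.05. Residual degrees of freedom were 2 and prior ones 1.94. An exact permutation test of 2 against 2 arrays cannot go below p = 0.333, so none was used. The procedure was tested on simulated data. The number of arrays limits the precision.

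The 9 genes, the pathway lists and the tests were chosen with earlier results of these data known. From each pathway list, genes past the threshold were named, and the largest differences up to 3 in all. Other probe sets and markers were named after their values were seen, and the promoter search was added then. Alternatives covered scaling, moderation, dim probe sets, the probe set rule, the threshold, the replicate block and each array left out.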

Additional observations from a re-analysis of the deposited data

How the results depend on the processing

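Of the 9 genes, 2 passed with trend and robust priors (ALDH1A3 -0.426, RARRES1 -0.587), 2 in the fit restricted to genes averaging 5 or more on the log2 scale (ALDH1A3 -0.426, CRABP2 -0.256; only 4 of the 9 were tested there) and 2 without the dimmer part of the probe sets (ALDH1A3 -0.426, RARRES1 -0.587). These fits also called more of all genes (3935, 3939 and 3596, or 19.9%, 47% and 29.7% of those tested, against 1242 as reported). Of the pathway genes tested they called 28 of 86, 28 of 42 and 26 of 62, against 9 of 86 as reported. Median centring called 1881 genes and 15 of the pathway, cyclic loess 2096 and 15, and a threshold of 0.01 called 13 and 0. With every probe set tested on its own, 341 of 41091 single-symbol probe sets passed (0.83%), and 1 pathway gene by its brightest probe set. None of the 9 passed under those 4 or with the mean of all probe sets (1210 genes, 12 of the pathway). The mean of all probe sets reversed RARG (-0.0123) and LLGL1 (0.00793).

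With the replicate number as a replicate block, limma called 0 genes and 0 of the pathway (4284 genes at an unadjusted p below 0.05), and so did a crossed replicate block added after seeing the data (0 and 0, with 5520 at an unadjusted p below 0.05). Deviations of same-numbered arrays correlated at -0.13, and the labels give these arrays only a shared number. Leaving out any 1 array called 0 genes in all and 0 of the pathway (3496 to 4546 at an unadjusted p below 0.05). Such fits have 1 residual degree of freedom and assume that the remaining array varies as the other group does. Across them ALDH1A2 ran from -0.212 to 0.00599, RARB from -0.284 to 0.0173, CYP26A1 from -0.162 to 0.236, RBP5 from -0.0322 to 0.35 and RXRG from -0.108 to 0.374. ALDH1A3 (-0.569 to -0.283), RARRES1 (-0.82 to -0.354), CRABP2 (-0.336 to -0.176) and ALDH1A1 (0.195 to 0.355) kept their direction. The cause of these changes in calls was not tested. Signals below a log2 of 3 (ALDH1A1, RARB) limit what can be read from their size.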
